A study of Mus musculus with 2 samples.

Results

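A set of 10 genes that encode subunits of the Polycomb complexes was followed in a map of open chromatin in mouse embryonic stem cells (mESCs). They are Ezh1, Ezh2, Eed and Suz12 of the core of Polycomb repressive complex 2 (PRC2), Jarid2 and Mtf2 as accessory subunits of PRC2, Rnf2 and Ring1 of the core of PRC1, and Pcgf6 and Kdm2b of variant forms of PRC1. The 10 genes were chosen by name from the 21938 protein-coding genes of chromosomes 1 to 19, X and Y in the GENCODE annotation of mm10, and no measured value entered the choice. For each gene, the peak over the annotated gene start was taken, along with every peak from 10 kb upstream of the start to the end of the gene.

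Polycomb complexes keep genes silent by modifying histones. PRC2 methylates lysine 27 of histone H3 through EZH1 or EZH2, which need EED and SUZ12 for activity, while PRC1 ubiquitinates histone H2A through RING1 or RNF2, also known as RING1B. In mESCs both complexes are known to occupy CpG islands at the promoters of developmental regulators, where KDM2B binds unmethylated CpG and MTF2 and JARID2 help to bring PRC2 to chromatin. The measurements below concern the genes that encode these proteins and not the sites that the proteins bind.

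Open chromatin was mapped by ATAC-seq, an assay in which a transposase inserts adapters into accessible DNA, in 2 independent clones of the line EHMT2-dTAG-mcherry with 50000 cells per library. The line is of a BL6/129 hybrid strain and carries a degradation tag and mCherry on the endogenous gene for EHMT2, a methyltransferase of lysine 9 of histone H3. All cells were kept in medium with FBS and LIF and received DMSO, the solvent control, for 24 h, so no degrader was present and EHMT2 was not depleted. The study grew its mESCs on feeder cells, which were mouse embryonic fibroblasts, and names no step that removed them before ATAC-seq. Fragments from feeder cells, if any, cannot be told apart here. The deposited data are 1 list of 116782 peaks called on both clones merged, and it therefore holds no comparison between conditions and no spread between clones.

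The value of each peak is its fold enrichment, the fragment pileup at the summit plus 1 divided by the local background plus 1. The number of fragments over the summit was calculated for each peak from its p-value and fold, and came out whole for 116778 peaks. Over the whole list the median peak had 9 fragments, the quartiles were 7 and 17 and the lowest number was 6. Intervals below are exact Poisson 95% intervals of the fragment number. They cover counting error only, and an interval of a fold holds the local background fixed. No control library is among the samples, so the background comes from the same ATAC-seq fragments and is not independent of nearby peaks. As a check of the cell type with genes chosen after their values were seen, the pluripotency genes Pou5f1 and Nanog had peaks over their starts with fold enrichments of 2.83 and 4.12, whereas Sox2 and Esrrb had none there but 5 and 21 peaks in their windows. The folds of Pou5f1 and Nanog lay below 6.12, the lower quartile of all protein-coding start peaks. A start peak was found at 59.2% of all protein-coding genes, so the check does not settle the cell type. Muscle-specific Myod1 also had a start peak, with 8 fragments, so a start peak alone does not mark a cell type. The window counts are not corrected for gene length. Rp1, like Sox2 and Esrrb without a start peak, had 18 peaks in its window.

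The DNA directly upstream of the gene start is shown first for both pairs of paralogues and for both genes without a start peak, because these are the starts on which the results turn. Sequences are from the GRCm38 reference, which is a C57BL/6J genome and not the hybrid genome of the cells, and run 5′ to 3′ on the strand of the gene. Capitals mark GGGCGG (the box of SP and KLF factors), CGGAAG (ETS factors) and TTCCCGCC (E2F factors) on either strand. The stretches are 200 bases long, other than that of Rnf2, which has 164 because bases that RefSeq places in an untranslated exon were left off. Jarid2 lies on the plus strand and the other 5 genes shown lie on the minus strand. The stretches are Ezh2 at chr6:47595342-47595541, Ezh1 at chr11:101226464-101226663, Rnf2 at chr1:151500992-151501155, Ring1 at chr17:34024681-34024880, Jarid2 at chr13:44729274-44729473 and Kdm2b at chr5:122989824-122990023.
Ezh2: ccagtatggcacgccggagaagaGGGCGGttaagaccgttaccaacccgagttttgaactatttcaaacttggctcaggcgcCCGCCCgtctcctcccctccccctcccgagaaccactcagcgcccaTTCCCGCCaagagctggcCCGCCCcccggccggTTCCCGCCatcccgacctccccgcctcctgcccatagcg
Ezh1: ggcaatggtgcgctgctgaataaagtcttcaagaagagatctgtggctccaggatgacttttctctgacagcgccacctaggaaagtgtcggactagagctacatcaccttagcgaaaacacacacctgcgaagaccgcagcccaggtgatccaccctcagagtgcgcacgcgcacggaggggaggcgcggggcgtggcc
Rnf2: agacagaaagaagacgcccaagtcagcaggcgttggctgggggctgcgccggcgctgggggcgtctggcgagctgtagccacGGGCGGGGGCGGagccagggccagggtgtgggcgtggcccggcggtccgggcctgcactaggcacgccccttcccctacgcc
Ring1: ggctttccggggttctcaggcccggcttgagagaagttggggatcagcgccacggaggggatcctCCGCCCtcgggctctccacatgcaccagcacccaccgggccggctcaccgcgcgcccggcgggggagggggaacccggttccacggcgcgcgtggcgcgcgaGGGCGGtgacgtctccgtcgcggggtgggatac
Jarid2: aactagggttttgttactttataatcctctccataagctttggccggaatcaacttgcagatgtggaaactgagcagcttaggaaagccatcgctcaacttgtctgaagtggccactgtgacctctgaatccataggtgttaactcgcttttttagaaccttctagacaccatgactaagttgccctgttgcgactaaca
Kdm2b: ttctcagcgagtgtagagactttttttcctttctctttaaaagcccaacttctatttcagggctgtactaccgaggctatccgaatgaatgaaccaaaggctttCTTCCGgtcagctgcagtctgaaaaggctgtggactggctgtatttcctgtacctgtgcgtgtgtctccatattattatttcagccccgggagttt

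Ezh2, Rnf2 and Ring1 held GGGCGG in this stretch and Ezh1, Jarid2 and Kdm2b did not. The Ezh2 stretch also held 2 copies of the E2F sequence TTCCCGCC, and Kdm2b held CGGAAG. Over all protein-coding genes, GGGCGG was present in 37.5% of the 200 bases upstream, in 56.5% where the start had a peak and in 9.81% where it had none. TTCCCGCC was present in 2.17% and CGGAAG in 14.0% of all genes. The CpG number of the stretches ran from 4 in Jarid2 and 6 in Kdm2b to 26 in Ring1, with 18 in Ezh2, 13 in Ezh1 and 16 in Rnf2.

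A peak covered the gene start of 8 of the 10 genes (80.0%), beside 59.2% of all protein-coding genes. Ezh1, Ezh2, Eed, Suz12, Mtf2, Rnf2, Ring1 and Pcgf6 had a start peak and Jarid2 and Kdm2b did not. With a −log10 q-value of at least 10, 7 genes kept their start peak and Pcgf6 did not, beside 45.0% of all genes. When a peak over the start of any protein-coding transcript was accepted, all 10 genes had one, beside 64.9% of all genes. The 10 genes have 42 such transcripts and the 21938 genes have 58745, so the 10 genes have more starts per gene that can be covered. A start without a peak can still hold fragments, since the list contains only peaks with q below 0.05.

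**Figure D1:**
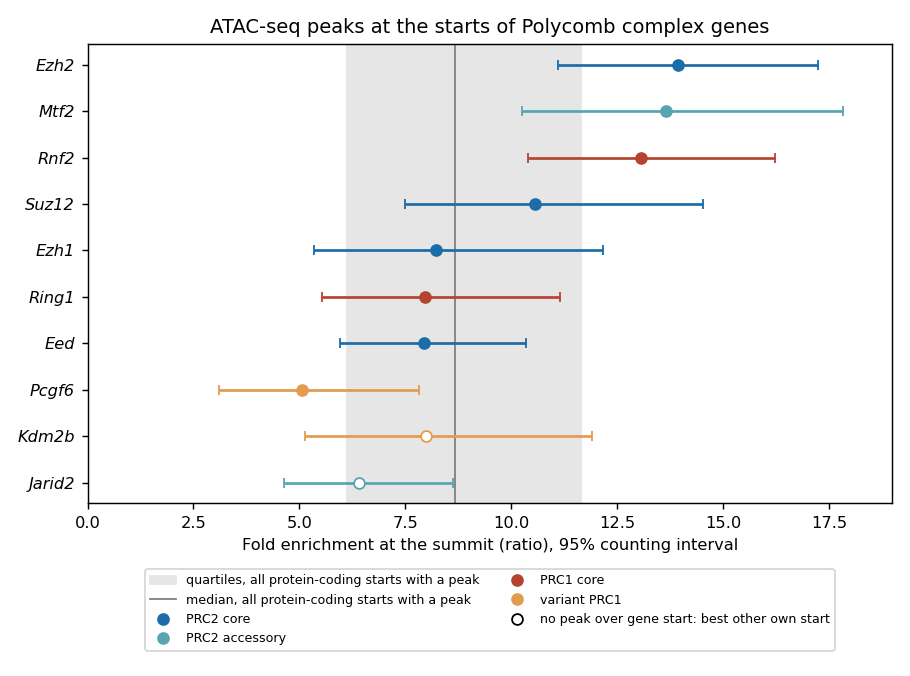
Fold enrichment at the summit of the start peak (x axis, ratio) for the 8 genes with a start peak (filled points) and of the strongest peak over another transcript start for Kdm2b and Jarid2 (open points). Bars are exact Poisson 95% counting intervals, the grey band runs between the quartiles of all protein-coding start peaks (6.12 and 11.6) and the line is their median (8.68); Ezh2, Mtf2 and Rnf2 sit above the band and Pcgf6 below it.

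Among the catalytic subunits of PRC2, the start of Ezh2 was more enriched than that of Ezh1. The Ezh2 peak (chr6:47594192-47595733) had a fold enrichment of 13.9 (95% interval 11.1 to 17.2), at the 88.2 percentile of all protein-coding start peaks. Its summit held 82 fragments (65.2 to 102) over a local background of 4.96 and lay 171 bp inside the gene. The Ezh1 peak (chr11:101225658-101226773) had a fold of 8.22 (5.34 to 12.2), at the 45.5 percentile. Its summit held 23 fragments (14.6 to 34.5) over a background of 1.92, 97 bp upstream of the start. Ezh2 thus had 1.69 times the fold of Ezh1 with overlapping intervals, and 3.57 times the fragments with intervals that did not overlap. EZH2 is the main methyltransferase of dividing cells, and EZH1 is the paralogue known from resting and differentiated tissue.

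The partners that EZH1 and EZH2 need had start peaks whose folds and fragment numbers overlapped within counting error. Suz12 (chr11:79992218-79993477) had a fold of 10.6 (7.49 to 14.5) from 36 fragments, with the summit 7 bp upstream of the start. Eed (chr7:89979992-89981514), whose protein binds trimethylated lysine 27, had a fold of 7.93 (5.96 to 10.4) from 52 fragments, with the summit 113 bp upstream. The fold and the fragment number order these genes differently, as the local background was 5.68 at Eed and 2.50 at Suz12. The Eed peak also covered the start of the non-coding gene E230029C05Rik, so its fragments cannot be assigned to either start.

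Mtf2, which encodes a DNA-binding accessory subunit also called PCL2, had the narrowest of the strong start peaks. The peak (chr5:108065297-108066069) was 773 bp wide, beside a median of 1058 bp over all protein-coding start peaks, and its summit lay 8 bp inside the gene. The fold was 13.7 (10.3 to 17.8), at the 86.9 percentile, from 52 fragments (38.8 to 68.2) over a background of 2.88. Eed had the same 52 fragments with a background of 5.68, and the intervals of the folds of Mtf2 and Eed overlapped by a narrow margin, at 10.3 and 10.4.

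The catalytic subunits of PRC1 differed in the same direction as those of PRC2. The peak over Rnf2 (chr1:151500196-151501390) had a fold of 13.1 (10.4 to 16.2) from 80 fragments (63.4 to 99.6), with the summit 65 bp upstream of the start. The peak over Ring1 (chr17:34024320-34024916) had a fold of 7.97 (5.53 to 11.2) from 32 fragments (21.9 to 45.2), with the summit 197 bp inside the gene. Rnf2 had 1.64 times the fold of Ring1 with overlapping intervals and 2.50 times the fragments with intervals that did not overlap. RNF2 is the better known of the pair in mESCs, where it carries most of the H2A ubiquitination. The Ring1 peak was the narrowest of the 8 at 597 bp.

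Pcgf6, which encodes the subunit that defines the variant complex PRC1.6, had the weakest of the 8 start peaks. The peak (chr19:47050056-47051365) had a fold of 5.05 (3.10 to 7.83), at the 14.9 percentile, from 18 fragments (10.7 to 28.4). Its −log10 q-value of 7.37 was the lowest of the 8, and its summit lay 292 bp inside the gene, farther from the start than in the other 7. A peak in an intron of Pcgf6, 3338 bp from the start, had nearly the same values with a fold of 5.38 (3.34 to 8.24) and 19 fragments.

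In order of fold the 8 start peaks were those of Ezh2, Mtf2, Rnf2, Suz12, Ezh1, Ring1, Eed and Pcgf6, and every neighbouring pair in this order had overlapping intervals. Of the 28 possible pairs, 5 had fold intervals that did not overlap and 12 had fragment intervals that did not overlap. The order is therefore settled within counting error only between its ends. The fragments and backgrounds are drawn together in the plot of fragments against background.

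**Figure D2:**
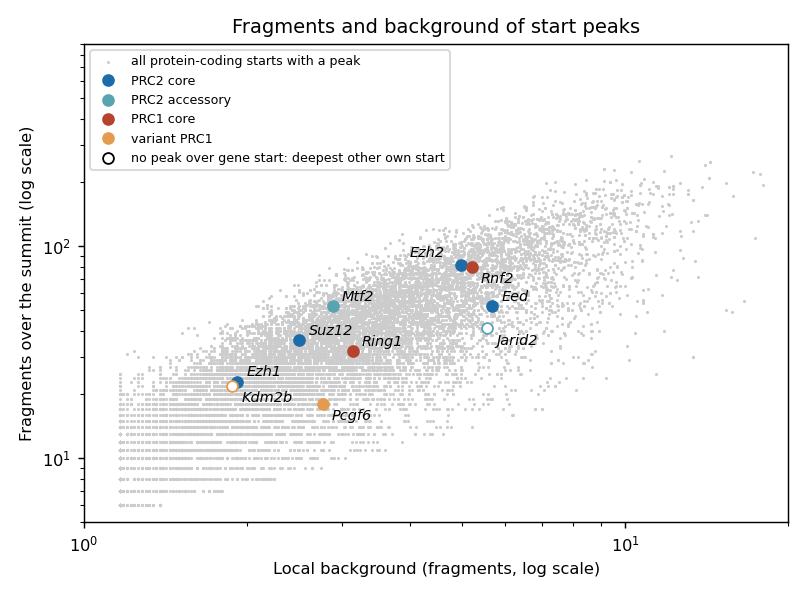
Fragments over the summit (y axis, log scale) against local background in fragments (x axis, log scale) for every protein-coding start peak (grey) and for the Polycomb complex genes (colours by complex). Filled points are start peaks and open points the deepest peak over another transcript start of Jarid2 and Kdm2b; Ezh2 and Rnf2 lie together near 80 fragments, and Eed and Jarid2 have the highest backgrounds, 5.68 and 5.56.

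Jarid2 encodes a DNA-binding accessory subunit of PRC2 that is related to histone demethylases but has no such activity. Its annotated start, at the 5′ end of a non-coding transcript named Jarid2-214, had no peak, and the nearest peak began 94 bp downstream. That peak (chr13:44729568-44729822) had a fold of 2.52 (1.48 to 4.06) from 15 fragments over a background of 5.34, and covered the start of the transcript Jarid2-204. A stronger peak from 864 to 1886 bp downstream (chr13:44730338-44731360) had a fold of 6.40 (4.64 to 8.63) from 41 fragments (29.4 to 55.6). It covered the starts of 6 transcripts, and 3 of them, Jarid2-201, Jarid2-208 and Jarid2-210, have the longest coding sequence of the gene, 1234 codons. Both starts that RefSeq gives for Jarid2, at 1300 and 1797 bp, lay in the same peak. A further peak with its summit at 4247 bp had a fold of 4.86 (3.33 to 6.87) from 30 fragments and covered the start of Jarid2-202. The local backgrounds of these 3 peaks, 5.34 to 5.56, were above the upper quartile of 4.32 of all protein-coding start peaks.

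The peak of highest fold in the Jarid2 window was none of these. It lay upstream, with the summit 7105 bp before the start, and had a fold of 7.42 (4.56 to 11.5) from 18 fragments over a background of 1.56. Its interval overlapped that of the peak over the coding starts, which had more fragments, 41 against 18. The next outside the 5′ end was an intron peak 122299 bp from the start with a fold of 6.78 (3.98 to 10.9) from 15 fragments. The other 5 peaks of this 192.2 kb gene had folds of 3.01 to 5.26 from 6 to 13 fragments.

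Kdm2b encodes the CpG-binding subunit of the variant complex PRC1.1. Its annotated start also had no peak, and the nearest peak began 230 bp downstream. This peak (chr5:122988887-122989593) had a fold of 2.96 (1.51 to 5.35) from 9 fragments and covered the starts of the coding transcripts Kdm2b-202, with 1309 codons, and Kdm2b-204, with 1266. It also covered the start of the non-coding gene A930024E05Rik. The strongest peak of the window lay far inside the gene, with its summit 89347 bp from the start. That peak (chr5:122899881-122901240) had a fold of 7.99 (5.13 to 11.9) from 22 fragments (13.8 to 33.3), and its summit lay 121 bp upstream of the start of the transcript Kdm2b-201. Kdm2b-201 has 776 codons, and 97.7% of its coding bases are shared with Kdm2b-202, beginning at codon 552 of the latter. KDM2B is known to occur as a long form with a JmjC demethylase domain and a short form without it, and both forms keep the zinc finger that binds CpG. The fold intervals of both peaks overlapped between 5.13 and 5.35, and their fragment intervals, 4.12 to 17.1 and 13.8 to 33.3, also overlapped. The other 5 peaks of Kdm2b had folds of 3.24 to 5.65 from 6 to 13 fragments.

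**Figure D3:**
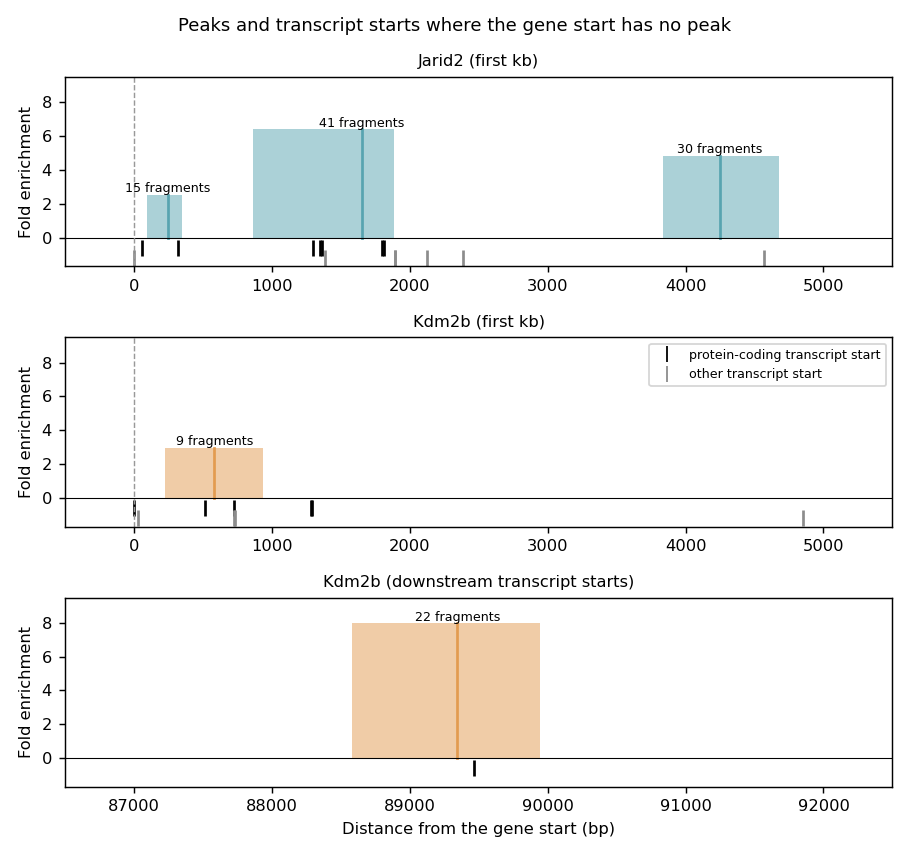
Peaks (shaded blocks, height is fold enrichment; the vertical line is the summit) by distance in bp from the gene start for Jarid2, for the 5′ end of Kdm2b and for the part of Kdm2b near 89347 bp. Ticks under the axis are transcript starts, black where protein-coding; the dashed line at 0 is the annotated gene start, which no peak covers in either gene, and the numbers are fragments at the summit.

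The sequences at the summits of the strongest peak over a coding start of each of these genes are given for comparison with the uncovered starts above. Capitals mark GGGCGG and CCAAT (the box bound by NFY) on either strand. The Jarid2 stretch is chr13:44731030-44731230 on the plus strand and the Kdm2b stretch is chr5:122900376-122900576 on the minus strand, each 201 bases long. In Kdm2b a pair of GGGCGG copies on the opposite strand overlap in the run of 10 capitals.
Jarid2, peak at the coding starts: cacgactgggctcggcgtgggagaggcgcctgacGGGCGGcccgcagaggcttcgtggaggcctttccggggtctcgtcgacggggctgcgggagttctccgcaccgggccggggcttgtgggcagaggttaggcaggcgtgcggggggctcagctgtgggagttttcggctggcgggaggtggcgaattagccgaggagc
Kdm2b, peak at the short transcript: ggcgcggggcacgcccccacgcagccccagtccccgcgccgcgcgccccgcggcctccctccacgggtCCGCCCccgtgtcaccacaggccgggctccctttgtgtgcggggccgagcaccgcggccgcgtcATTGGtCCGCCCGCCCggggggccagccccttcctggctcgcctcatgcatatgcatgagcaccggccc

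Both stretches were rich in CpG, unlike the uncovered starts. The Jarid2 stretch held 22 CpG with 71.6% GC, and the Kdm2b stretch held 26 CpG with 78.6% GC. In the 500 bp around the annotated starts, GC was 50.3% at Jarid2 and 46.3% at Kdm2b, and the ratio of observed to expected CpG was 0.478 and 0.447. The 8 starts with a peak had 60.1% to 75.4% GC and ratios of 0.759 to 0.979. Over all protein-coding genes the medians were 57.1% and 0.586. Of the 12471 genes with at least 46.3% GC and a ratio of at least 0.447, the lowest values among the 10 genes, 91.9% had a start peak, which is more than the 80.0% of the 10 genes.

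**Figure D4:**
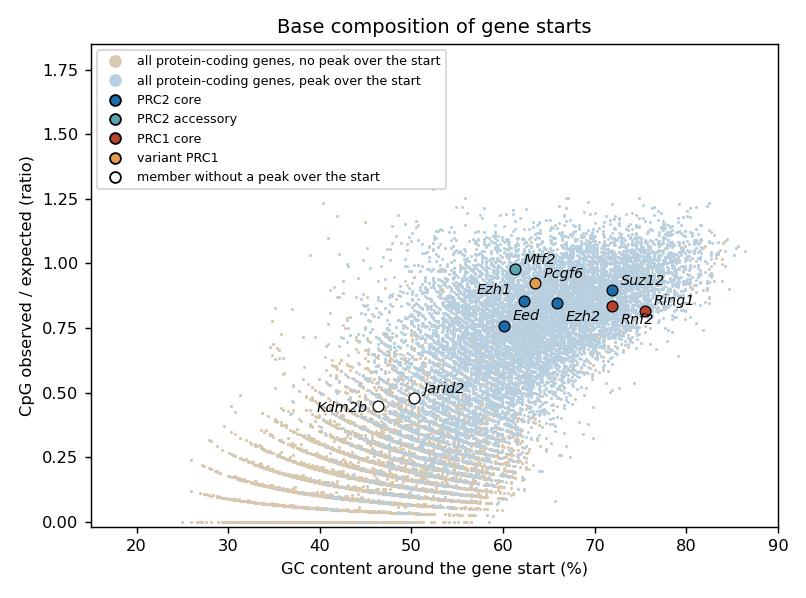
Ratio of observed to expected CpG (y axis) against GC content in percent (x axis) in 500 bp around the annotated start, for all protein-coding genes with (blue) and without (tan) a start peak and for the Polycomb complex genes. Jarid2 and Kdm2b (open points) lie at ratios of 0.478 and 0.447, below the 8 genes with a start peak, which begin at 0.759.

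The start peaks of the 8 genes were much like those of other protein-coding genes. Their median fold was 9.40 against 8.68 for all 12990 protein-coding start peaks, and 4 of the 8 lay above that median, 3 above the upper quartile of 11.6 and 1 below the lower quartile of 6.12. The median number of fragments was 44 against 34. The sign of the difference in fold depended on which peak was counted, since the median was 8.22 against 8.68 when the summit had to lie within 500 bp of the start, and 8.10 against 8.65 over the starts of any protein-coding transcript. The median distance of the summit from the start was 105 bp against 122 bp. With 1 merged list no test of these differences was possible.

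Around the summits, 5 of the 8 start peaks held GGGCGG within 100 bp, those of Suz12, Mtf2, Rnf2, Ring1 and Pcgf6, beside 54.6% of all protein-coding start peaks. CCAAT was found at Ezh2 and Suz12 (27.0% of all) and CGGAAG at Ring1 (21.2% of all). The other sequences searched, GCGCATGC of NRF1, AAGATGGC of YY1, TTCCCGCC of E2F, TGACGTCA of CREB and ATF, CACGTG of E-box factors and TCTCGCGA of ZBTB33 and BANP, were within 100 bp of the summit in none of the 8, and each was there in 1.34% to 6.26% of all start peaks. The copies of TTCCCGCC upstream of the Ezh2 start lie inside its start peak but farther than 100 bp from the summit. Each sequence was searched on both strands, and overlapping copies of GGGCGG count as present once. These letters do not show that a factor is bound.

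Across the 10 windows 44 peaks were found, and 36 of them lay away from the gene start. The 36 had a median fold of 4.58 (range 2.52 to 10.1) and a median of 11.5 fragments (6 to 41), against 9.40 and 44 for the 8 start peaks. Of the 36, 18 had their summit in an intron, 3 in an exon and 7 upstream, 6 covered the start of another transcript of the same gene and 2 covered the start of another gene. Under 10 fragments were found at 16 of the 36 and at none of the 8 start peaks. Over the whole list the median peak had a fold of 3.98 and 9 fragments, so peaks under 10 fragments are common. All protein-coding start peaks had medians of 8.68 and 34, so stronger start peaks are not particular to these genes. A −log10 q-value of at least 10 was reached by 5 of the 36, which were in Jarid2 (3), Kdm2b and Mtf2. The share of all peaks away from gene starts that reached it is not given here.

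The strongest peak of the 36 lay in an intron of Mtf2, 11554 bp from the start. It had a fold of 10.1 (7.19 to 13.8) from 37 fragments (26.1 to 51.0), at the 95.3 percentile of all peaks that cover no protein-coding gene start. Unlike the start peaks it had a low GC content of 41.1%. Its interval overlapped that of the Mtf2 start peak, 10.3 to 17.8. The sequence at its summit is chr5:108077128-108077328 on the plus strand of chromosome 5, where capitals mark CCAAT on the opposite strand, and is shown because it is the most enriched site of the 10 genes outside a start.
Mtf2, intron peak: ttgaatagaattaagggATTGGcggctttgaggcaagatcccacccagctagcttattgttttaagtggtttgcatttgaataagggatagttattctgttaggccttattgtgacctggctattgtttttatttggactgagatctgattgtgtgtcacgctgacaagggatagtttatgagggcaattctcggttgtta

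**Figure D5:**
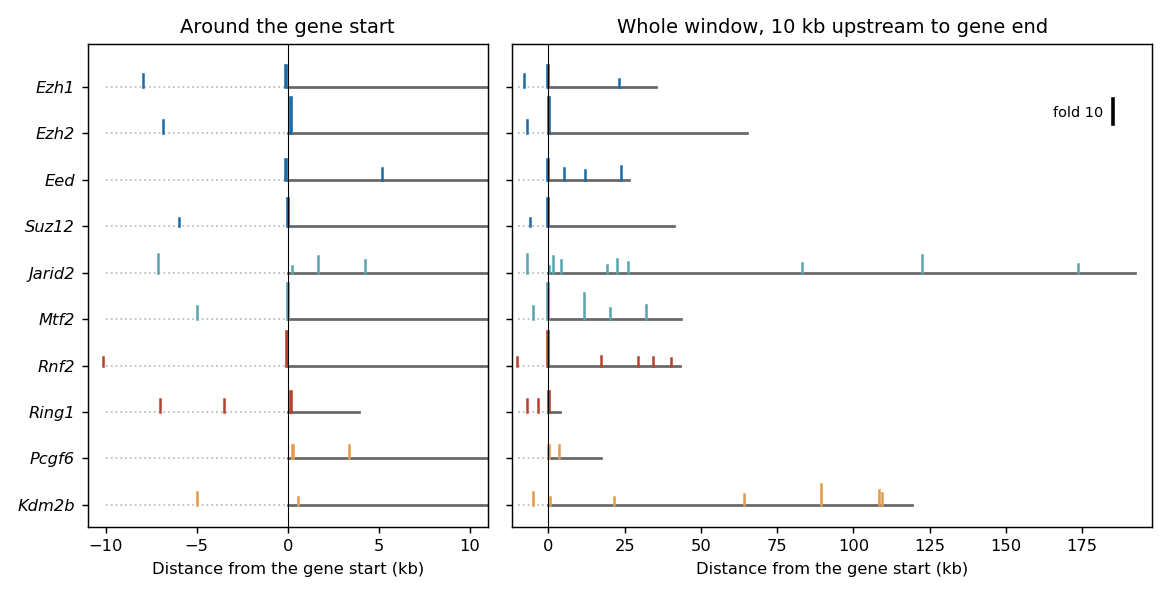
Peaks of each gene by distance of the summit from the gene start in kb (x axis), within 11 kb of the start (left) and over the whole window (right). The height of each vertical line is the fold enrichment (scale bar, fold of 10), thick lines are start peaks, solid grey lines the gene and dotted lines the 10 kb upstream; Jarid2, Kdm2b and Pcgf6 are the genes whose tallest line is not at the start.

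The start peak was the strongest peak of its window in 7 of the 10 genes, beside 52.2% of the 18546 protein-coding genes with any peak in the window. The exceptions were Jarid2 and Kdm2b, without a start peak, and Pcgf6, where the intron peak was slightly higher with an overlapping interval. In the 7 genes the interval of the start peak was apart from that of the strongest other peak at 3, Ezh2, Suz12 and Rnf2, and overlapped it at 4, Ezh1, Eed, Mtf2 and Ring1. The strongest other peak of Ezh2 lay 6863 bp upstream with a fold of 5.31 (2.87 to 9.15) from 11 fragments. At Suz12 the only other peak had a fold of 3.24 (1.48 to 6.50) and 6 fragments, the lowest number in the list. At Ezh1 the strongest other peak lay 7933 bp upstream with a fold of 5.24 (2.90 to 8.86) from 12 fragments, and the remaining peak, over the start of the non-coding transcript Ezh1-206, had a fold of 3.24 from 6 fragments. Mtf2 had 3 peaks beside its start peak and its strong intron peak, with folds of 4.16 to 5.47 from 8 to 19 fragments.

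In Eed, Rnf2 and Ring1 the further peaks differed in kind. Eed had 3 intron peaks with folds of 3.98 to 5.44 (3.20 to 8.76 for the strongest), and that 5169 bp from the start had 26 fragments over a background of 4.94. Rnf2 had 5 further peaks, and all were weak, with folds of 3.03 to 3.70 from 7 to 9 fragments, and the strongest had an interval of 1.76 to 7.13. Ring1 is a gene of 3.9 kb in a dense part of chromosome 17, and both of its further peaks covered the starts of neighbours. The peak 3498 bp upstream lay over the start of H2-Ke6 (fold 5.04, interval 3.33 to 7.35, 25 fragments), and that 7043 bp upstream over the starts of Slc39a7, Rxrb and Gm20427 (fold 4.89, 21 fragments). Peaks filled 11.7% of the Ring1 window, the largest share of the 10 genes, against 2.80% at Jarid2, and the median of the 10 genes was 5.36% against 4.67% for all protein-coding genes.

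Of the 42 protein-coding transcripts of the 10 genes, 30 had a peak over their start, beside 56.5% of the 58745 protein-coding transcripts of all protein-coding genes. Transcripts of a gene often share a start peak, so they are not independent. The shares ran from 3 of 3 in Ezh1 and 2 of 2 in Suz12 to 3 of 8 in Kdm2b. In the RefSeq annotation the 10 genes have 15 starts, and 13 of these had a peak. The share was 62.3% of the 20150 RefSeq starts used here for protein-coding genes. Each of the 10 genes had at least 1 covered RefSeq start, but the share of all genes with 1 was not calculated. A gene with several starts, such as Kdm2b with 4, has more that can be covered. The 2 RefSeq starts without a peak were at 12491 bp in Mtf2 and at 1316 bp in Kdm2b. At Jarid2 both RefSeq starts had a peak, and at Kdm2b 3 of 4 did.

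Among 31 further genes of the Polycomb system, 28 (90.3%) had a start peak, beside 59.2% of all protein-coding genes, and 23 had one with a −log10 q-value of at least 10, beside 45.0%. The median ratio of observed to expected CpG was 0.879 at the 31 starts, against 0.586 over all protein-coding genes. Among the 12471 genes above the GC and CpG limits given earlier, 91.9% had a start peak. Those limits are the lowest values of the 10 genes, and not all of the 31 meet them. Aebp2 and Cbx7 had CpG ratios of 0.358 and 0.428, and both had a start peak. Whether base composition accounts for the share of the 31 was not tested. The start peaks of the 31 genes had a median fold of 7.73 against 9.40 for the 8 genes above and 8.68 for all protein-coding genes. The highest folds were 14.3 at Pcgf3 and 12.0 at Pcgf1, which encode subunits that define variant PRC1 complexes, and 11.7 at Asxl2, whose product is a partner of the H2A deubiquitinase BAP1. The lowest were 3.11 at Bcorl1, 3.83 at Epop, which encodes an accessory subunit of PRC2, and 3.85 at Bmi1, which encodes a subunit of canonical PRC1. Phf19, Pcgf2 and Bcor had no start peak. For Pcgf2 a peak over the start of another coding transcript had a fold of 2.67 from 13 fragments, whereas the nearest peaks to the starts of Phf19 and Bcor were 6138 and 6318 bp away.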

How the data were processed

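ATAC-seq was performed on 2 clones. The authors combined technical replicates, trimmed adapters (BBMap), mapped reads to mm10 (STAR 2.7.10), placing multimapping reads at random among best locations, and discarded duplicates (Picard 2.26.0) and reads in ENCODE High Signal Regions. Fragments were shifted by 4 and 5 bp for Tn5. The authors called peaks on whole fragments of both clones together with MACS2 2.2.6 and kept those with q below 0.05. The fold enrichment in the deposited list is a ratio with a pseudocount of 1. The deposited columns of −log10 p-value and −log10 q-value refer to the summit, and the deposited score repeats the former and was not used.

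Fragment numbers and backgrounds were calculated from each fold and p-value with the Poisson formula of MACS2, with a tolerance of 0.001 on the −log10 p-value for a whole number. The calculation was tested on simulated data. Library totals were not analysed here. Starts, transcripts and coding lengths came from GENCODE vM21 and sequences from RefSeq GRCm38.p6, both the build of the files. The study used a later GENCODE release. GC and CpG were taken within 250 bp on either side of a start. Software was Python 3.11.15, NumPy 2.4.6, pandas 2.3.3, SciPy 1.17.1 and Matplotlib 3.10.9. All 10 genes are named with their start peak, the strongest other peak and a summary of the rest, and the 31 further genes by counts, by the 3 highest and 3 lowest folds and by those without a start peak. The genes, lists and alternatives were chosen with earlier results of these data known, although no measured value was used to pick the 10 genes. Both libraries belong to 1 group, so no test between groups was made.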

Additional observations from a re-analysis of the deposited data

How the results depend on the processing

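The 7 results on the 10 Polycomb complex genes and 1 on the 31 further genes were recomputed under other settings, several of which served more than 1 result. There were 27 planned recomputations, each of 1 result under 1 setting, and 1 with the RefSeq starts that was added after the values were seen. Of these, 25 moved a result by less than its limit (1.5 times for a count, the 95% counting interval for a level) and 3 by more. The counts of genes, 8 and 7 of 10 and 28 of 31, had no room to rise by 1.5 times and could pass the limit only downwards. Their staying within it under settings that add starts was therefore fixed in advance. The number of peaks in the 10 windows fell from 44 to 12 with a −log10 q-value of at least 10 and to 28 with at least 10 fragments. The median share of window bases in peaks went from 5.36% to 2.35% with a −log10 q-value of at least 10, and from 4.67% to 1.45% over all protein-coding genes. The median percentile of the start peaks was 56.3, and 45.6 when the summit had to lie within 500 bp of the start. No paired analysis was possible because the list holds the 2 clones merged, which also prevented leaving out either clone. Depth limits the weak peaks most, since a peak of 9 fragments has a 95% interval of 4.12 to 17.1. Reads from repeats are placed at 1 of several locations, and 3 of the 36 peaks away from gene starts are repeat-masked over most of their length. They lie upstream of Ezh1 (54.1% masked), Ezh2 (53.1%) and Mtf2 (54.6%), and those of Ezh1 and Ezh2 are the strongest other peaks of these genes.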
